A study of Mus musculus with 6 samples.

Results

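A set of 10 genes of glucocorticoid signalling was followed in whole lungs of mouse embryos at E18.5, shortly before birth: the glucocorticoid receptor gene Nr3c1, the steroid-activating enzyme gene Hsd11b1, and the responsive genes Fkbp5, Tsc22d3, Zbtb16, Klf9, Per1, Per2, Dusp1 and Errfi1. All array probes that the annotation gives to these 10 genes were taken, 19 of the 45281 probes on the array, and 17 of them, for 9 genes, were bright enough to be compared. The genes were chosen by name as receptor, enzyme and classic responsive genes, with the log2 differences of this same contrast already known, so their differences between the groups are given as a description, without p values.

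The R26Foxf1; Tie2-cre lungs (n=3, called Tie2-cre lungs here) came from embryos heterozygous for a Foxf1 knock-in at the ROSA26 locus and for the Tie2-cre transgene, which removes a stop cassette and switches the knocked-in Foxf1 on in endothelial and hematopoietic cells. The R26-LSL-Foxf1 lungs (n=3, controls) carried the same knock-in allele with the lox-STOP-lox cassette in place. The targeted embryonic stem cells were of C57BL/6N origin, and the study describes the controls as littermates. Each lung was hybridized to 1 Illumina array as a biological replicate of its genotype, and the RNA of all lung cells was read together, whereas the transgene acts in only some of them.

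Glucocorticoids reach the fetus from its own adrenal gland and from the mother, and late in gestation they drive thinning of the lung mesenchyme and readiness for air breathing. The steroid enters the cell and binds its receptor, which is held by chaperones, and the receptor then moves into the nucleus and binds DNA as a dimer at glucocorticoid response elements. Hsd11b1 makes active corticosterone from an inactive precursor inside the cell, so that it sets the local supply. Many of the genes induced act as brakes: Fkbp5 on the receptor itself, Dusp1 and Errfi1 on kinase signalling, and Per1 and Per2 within the circadian clock.

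Promoter windows of 7 of the 10 genes were taken from RefSeq (mouse build GRCm38.p6), and no window of Nr3c1, Per2 or Zbtb16 was used. There were 11 windows of 300 bases, each from 250 bases before to 50 bases after a transcript start. Windows of Fkbp5, Per1 and Tsc22d3 are shown because Fkbp5 and Per1 had the largest differences after Zbtb16 by their brightest probes, and because the probes of Tsc22d3, a gene with several starts, differed among themselves. Capitals mark the cyclic AMP response element half-site TGACG, the E-box CACGTG to which clock factors bind, and the glucocorticoid response element half-site AGAACA, each searched on both strands.
Fkbp5, chr17:28486100-28486399, minus strand: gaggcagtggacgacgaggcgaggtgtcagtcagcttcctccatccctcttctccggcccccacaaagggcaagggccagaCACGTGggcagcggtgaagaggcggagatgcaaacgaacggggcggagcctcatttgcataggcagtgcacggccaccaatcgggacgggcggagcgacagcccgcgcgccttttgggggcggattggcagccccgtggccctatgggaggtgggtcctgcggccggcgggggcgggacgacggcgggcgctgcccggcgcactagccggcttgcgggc
Per1 start 1, chr11:69098699-69098998, plus strand: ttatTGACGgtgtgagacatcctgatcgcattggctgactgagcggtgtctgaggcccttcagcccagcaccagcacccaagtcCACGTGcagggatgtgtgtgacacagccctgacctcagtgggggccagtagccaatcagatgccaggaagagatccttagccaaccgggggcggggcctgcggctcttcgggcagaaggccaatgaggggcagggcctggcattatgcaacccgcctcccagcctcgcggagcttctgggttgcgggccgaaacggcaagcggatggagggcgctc
Per1 start 2, chr11:69099902-69100201, plus strand: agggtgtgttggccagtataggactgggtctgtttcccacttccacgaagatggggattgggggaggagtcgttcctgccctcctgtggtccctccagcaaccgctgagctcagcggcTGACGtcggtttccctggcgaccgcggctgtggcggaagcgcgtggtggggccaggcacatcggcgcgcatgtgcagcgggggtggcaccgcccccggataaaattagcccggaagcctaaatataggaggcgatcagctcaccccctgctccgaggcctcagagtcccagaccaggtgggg
Tsc22d3 start 1, chrX:140542619-140542918, minus strand: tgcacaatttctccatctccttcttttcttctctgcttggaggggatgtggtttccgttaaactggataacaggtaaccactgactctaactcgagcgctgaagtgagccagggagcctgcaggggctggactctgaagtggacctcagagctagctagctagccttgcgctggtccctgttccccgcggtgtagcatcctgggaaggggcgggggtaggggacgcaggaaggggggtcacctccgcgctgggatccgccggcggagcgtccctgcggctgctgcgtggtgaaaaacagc
Tsc22d3 start 2, chrX:140548522-140548821, minus strand: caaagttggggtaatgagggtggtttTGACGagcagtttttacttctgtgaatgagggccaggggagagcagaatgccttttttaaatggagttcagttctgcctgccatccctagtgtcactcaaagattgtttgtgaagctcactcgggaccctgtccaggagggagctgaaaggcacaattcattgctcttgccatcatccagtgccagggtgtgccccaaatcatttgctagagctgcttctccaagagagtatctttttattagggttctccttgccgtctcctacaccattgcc
Tsc22d3 start 3, chrX:140600473-140600772, minus strand: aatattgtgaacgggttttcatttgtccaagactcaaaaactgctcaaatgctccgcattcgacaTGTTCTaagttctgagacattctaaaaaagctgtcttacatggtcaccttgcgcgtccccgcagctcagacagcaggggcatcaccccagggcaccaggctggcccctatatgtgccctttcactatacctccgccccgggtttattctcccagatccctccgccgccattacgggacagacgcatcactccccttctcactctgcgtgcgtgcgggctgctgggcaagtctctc

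The CACGTG E-box was found in 3 of the 11 windows (Dusp1, Fkbp5 and Per1 start 1), against 7.15% of all 32851 promoter windows of the same length. TGACG or its reverse complement was found in 6 of the 11, against 20.8% of all windows. Where a site reads the same on both strands, its overlapping half-sites are each counted. AGAACA or its reverse complement was found in 1 of the 11, at Tsc22d3 start 3, against 19% of all windows. The palindromic element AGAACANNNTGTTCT, with any 3 bases in the middle, was found in 0 of the 11 windows and in 3 of all 32851 (0.00913%). These are letters in a short window and say nothing of binding, and distant elements were not searched.

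Values are log2 signals after background correction and quantile normalization (neqc), and a difference is the Tie2-cre mean minus the control mean. Across the array, limma called a probe where the p adjusted by Benjamini-Hochberg was under 0.05 and the change at least 1.2-fold. It called 908 of the 20118 probes tested (4.51%), 488 higher (2.43%) and 420 lower (2.09%) in Tie2-cre lungs. Foxf1 itself differed by 0.31 (SE 0.17, adjusted p = 0.285, limma). By other methods, the study reported Foxf1 overexpression in lungs of this stage (quantitative RT-PCR) and increased FOXF1 staining. Whether the array reads the knocked-in cDNA was not examined. Each lung had between 19831 and 20043 probes detected at p under 0.01. Of the lung markers, 7 of 8 epithelial, 6 of 8 endothelial and 8 of 8 mesenchymal genes were tested, with 0 past the threshold by limma and 0, 1 and 1 at an unadjusted p under 0.05. Counts at an unadjusted p keep the 1.2-fold limit, and 20.4% of all genes tested met them (2256 of 11080). Of the other cell types checked, all 7 skeletal muscle markers were lower in Tie2-cre lungs (median -2.43, 6 of 7 at an unadjusted p under 0.05 and 6 with groups that did not overlap), with a summed signal of 1211 to 3560 in Tie2-cre lungs, against 5591 to 41862 in controls, the highest in control replicate 2. Of these Myog fell (at least 1.31-fold), a call lost without Tie2-cre replicate 1 (-1.04) or 3 (-0.96) or control replicate 1 (-0.99) or 3 (-0.88) and in the deposited values (-0.18). All 6 keratinocyte markers tested had a lower mean, 3 of 6 at an unadjusted p under 0.05 and 1 with groups that did not overlap. Their summed signal overlapped, at 829 to 4145 in Tie2-cre lungs and 2049 to 7075 in controls. Krt17, detected in 1 of 3 Tie2-cre lungs and 3 of 3 controls, fell (-3.23). That call was lost when any lung other than Tie2-cre replicate 2 was left out (-3.51 to -2.70). Of 3 erythroid, 6 heart muscle and 1 fat marker tested, 0 passed by limma and 0 had an unadjusted p under 0.05. The part of these cell types in the values of the 10 genes was not tested. Some libraries stood apart. Thymocyte genes such as Rag1 and Cd3e were detected only in control replicates 1 and 2. The atrial gene Nppa was near background (4.62) in Tie2-cre replicate 1 alone, and Xist was undetected and the Y-linked Eif2s3y detected (8.96) in Tie2-cre replicate 3 alone.

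Of the 9 genes compared, Zbtb16 alone passed the array-wide threshold, with a higher level in Tie2-cre lungs. Among all genes tested, 1.54% were called higher and 1.44% lower by the brightest probe. By the brightest probe of each gene, 5 genes had a higher mean and 4 a lower mean in Tie2-cre lungs, against 57.7% higher and 42.3% lower among the 11080 genes tested. The median difference was 0.01, against 0.05 over all genes tested. The difference was under 1.2-fold in 7 of the 9. The groups did not overlap in 3 of the 9 genes, Zbtb16 and Per2 higher and Fkbp5 lower, against 29.4% of all genes. Of the 17 probes, 1 was called, against 4.51% of all probes. The groups did not overlap for 5 (31.9% of all probes), with 3 higher (18.5% of all probes) and 2 lower (13.4%). At an unadjusted p under 0.05 and 1.2-fold there were 5 of 17 probes (24.9% of all probes). By the brightest probe there were 2 of 9 genes (20.4% of all genes). These counts are no test, because the genes were chosen with this contrast known.

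**Figure D1:**
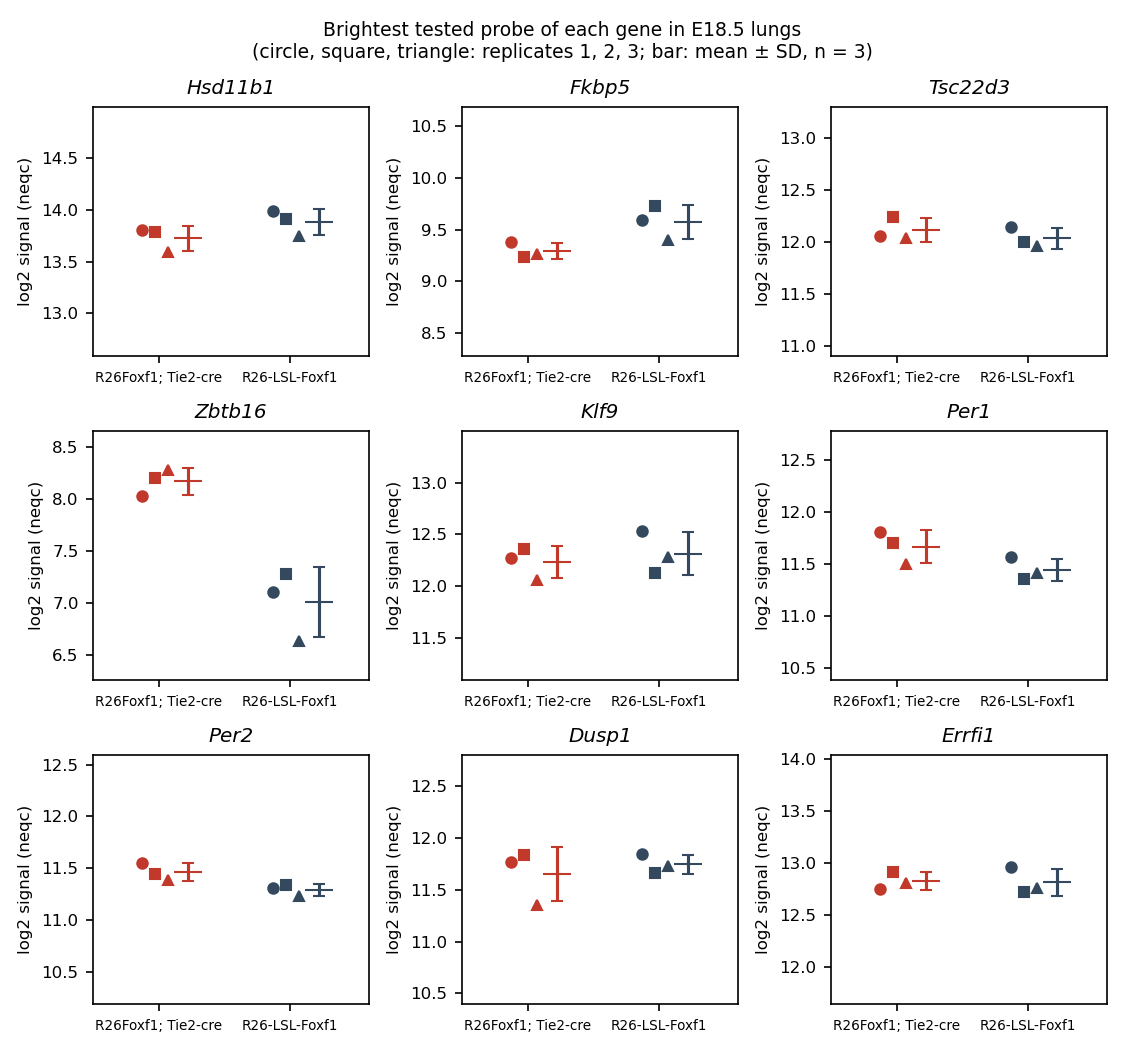
Log2 signal (vertical axis, neqc) of the brightest tested probe of each of the 9 genes in every lung, Tie2-cre lungs left of controls. Circles, squares and triangles are replicates 1, 2 and 3, and bars are mean ± SD (n=3). Zbtb16 is separated by the widest gap, with Tie2-cre lungs at 8.03 to 8.28 and controls at 6.64 to 7.28.

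Zbtb16 encodes PLZF, a zinc finger transcription factor that is also needed for natural killer T cells. It had a log2 signal of 8.03, 8.21 and 8.28 in Tie2-cre lungs, against 7.11, 7.28 and 6.64 in controls. All 3 Tie2-cre lungs lay above all 3 controls, with the lowest Tie2-cre lung 0.75 above the highest control. The means were 8.17 ± 0.13 in Tie2-cre lungs and 7.01 ± 0.33 in controls (SD, n=3 each), a difference of 1.16 (SE 0.17), or 2.24-fold higher. It was detected in all 6 lungs. In these whole-lung samples, more cells that express a gene and more RNA per cell cannot be told apart.

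The size of the Zbtb16 difference varied little when 1 lung was left out, from 0.98 to 1.30, but the call did not hold each time. It was lost without Tie2-cre replicate 1 (1.23), Tie2-cre replicate 2 (1.14), Tie2-cre replicate 3 (1.11) and control replicate 1 (1.21), and was kept without control replicate 2 (1.30) and control replicate 3 (0.98). In the deposited values it was kept with a smaller difference (0.58). Few probes of the array were called in most of these settings, between 2 and 1703. The lymphocyte markers were checked beside it because Zbtb16 is used in T cells. Of the 15 markers 12 had a probe and 1 was tested. Cd3e had 4.72, 4.51 and 4.57 in Tie2-cre lungs, against 8.68, 9.90 and 4.35 in controls. Rag1 had 4.64, 4.91 and 4.42 in Tie2-cre lungs, against 7.77, 9.21 and 4.50 in controls. Both were thus high in the 2 controls with the higher Zbtb16 signal, and at background in all Tie2-cre lungs. Against control replicate 3 alone, where these markers were at background, Zbtb16 was higher by 1.54 in Tie2-cre lungs. That control also had the lowest Zbtb16 signal, so the larger difference followed from the choice of control. The part of lymphocytes in the Zbtb16 difference was not tested. The one tested marker, Cd8b1, had 11.69, 11.58 and 11.80 in Tie2-cre lungs, against 11.31, 11.43 and 11.37 in controls (adjusted p = 0.107, limma), and did not follow Cd3e.

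Fkbp5, a co-chaperone that lowers the affinity of the receptor for its steroid, was lower in Tie2-cre lungs. Its log2 signal was 9.38, 9.24 and 9.27 in Tie2-cre lungs, against 9.59, 9.73 and 9.40 in controls. The groups did not overlap, but the highest Tie2-cre lung and the lowest control were only 0.02 apart. The difference was -0.28 (SE 0.12), or 1.21-fold lower, and it did not pass the array-wide threshold. It stayed negative in all 19 alternatives, between -0.36 and -0.20 with 1 lung left out.

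Tsc22d3 encodes GILZ, a leucine zipper protein that carries part of the anti-inflammatory action of glucocorticoids. Its 3 probes did not run the same way. The brightest, annotated to one RefSeq transcript, had 12.06, 12.25 and 12.04 in Tie2-cre lungs, against 12.15, 12.00 and 11.96 in controls, a difference of 0.08 (SE 0.11). The second, annotated to another RefSeq transcript, had 6.86, 7.73 and 7.33 in Tie2-cre lungs, against 8.41, 7.61 and 8.42 in controls. Control replicate 2 lay within the Tie2-cre range for this probe, while the other controls were above every Tie2-cre lung. The difference was -0.84 (SE 0.28), or 1.79-fold lower. Probe 3, annotated to a GenBank mRNA, had 6.54, 7.02 and 6.78 in Tie2-cre lungs, against 7.36, 6.92 and 7.32 in controls, a difference of -0.42 (SE 0.17), or 1.34-fold lower. By both dimmer probes Tie2-cre replicate 1 was the lowest of all 6 lungs and control replicate 2 the lowest control, and by the brightest probe neither was.

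None of the 3 Tsc22d3 probes passed the array-wide threshold. The second was among the most variable of the array, with a residual SD at the 96.7th percentile. It was called when control replicate 2 was left out (-1.10) and when arrays were weighted (-0.99). Which of the 3 starts printed above each probe reads was not examined, so the probes cannot be assigned to those promoters.

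**Figure D2:**
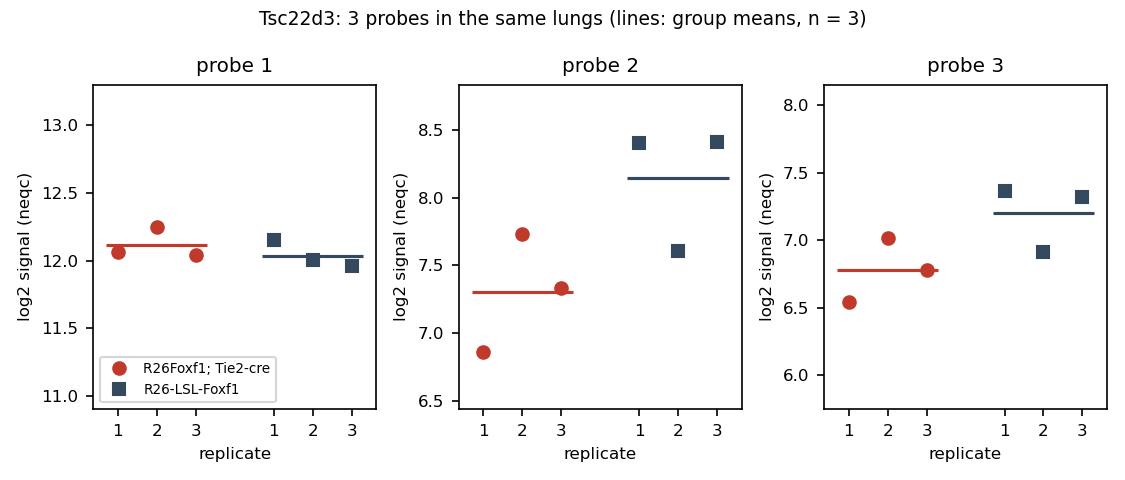
Log2 signal (vertical axis, neqc) of the 3 Tsc22d3 probes in each lung, Tie2-cre lungs left of controls. Points are lungs and bars are means. Control replicate 2 (7.61 and 6.92) falls within the Tie2-cre range for both dimmer probes, and the brightest probe spans 11.96 to 12.25 over all lungs.

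Klf9, a Krüppel-like transcription factor, had 12.27, 12.36 and 12.06 in Tie2-cre lungs, against 12.54, 12.12 and 12.28 in controls. The groups overlapped, and the difference was -0.08 (SE 0.14). Its sign turned under median scaling (0.01), without Tie2-cre replicate 3 (0.003) and without control replicate 1 (0.03), so no direction is given for Klf9.

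Both period genes had higher means in Tie2-cre lungs by each of the tested probes. Per1, which glucocorticoids induce directly, had 11.81, 11.70 and 11.50 by its brightest probe in Tie2-cre lungs, against 11.57, 11.36 and 11.41 in controls, a difference of 0.22 (SE 0.12). The second Per1 probe, on the same RefSeq transcript, had 10.50, 10.61 and 10.46 in Tie2-cre lungs, against 10.35, 10.24 and 10.16 in controls. The groups overlapped by the brightest probe and were 0.11 apart by the second, for which the difference was 0.27 (SE 0.10), or 1.21-fold. The dimmest Per1 probe was close to background, detected in 2 of 3 Tie2-cre lungs and 1 of 3 controls, and differed by 0.27 (SE 0.21).

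Per2 had 11.55, 11.45 and 11.39 by its brightest probe in Tie2-cre lungs, against 11.31, 11.34 and 11.23 in controls. The groups were 0.05 apart and differed by 0.17 (SE 0.10). This probe was the least variable of the 17, with a residual SD at the 8.26th percentile of the array. The second Per2 probe had 11.25, 11.07 and 10.87 in Tie2-cre lungs, against 11.06, 10.97 and 10.97 in controls, a difference of 0.06 (SE 0.12) that turned to -0.03 without Tie2-cre replicate 1. Its dimmest probe was detected in 0 of 3 Tie2-cre lungs and 2 of 3 controls and was not tested. No Per1 or Per2 probe passed the array-wide threshold. The litter and the hour at which each lung was taken are not given in the sources used here, and their part in the clock gene levels was not tested.

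Hsd11b1 was detected in all 6 lungs by 4 probes, which all had a lower mean in Tie2-cre lungs. The brightest had 13.81, 13.78 and 13.59 in Tie2-cre lungs, against 13.99, 13.91 and 13.75 in controls, a difference of -0.16 (SE 0.11). The groups overlapped for this probe. The others differed by -0.08 (SE 0.11), -0.17 (SE 0.11) and -0.37 (SE 0.20), and the groups were separate for one of them, by 0.01. Tie2-cre replicate 3 had the lowest signal of all 6 lungs by each of the 4 probes, with 7.93 by the dimmest probe, against 8.44 and 8.61 in the other Tie2-cre lungs and 8.45 to 8.82 in controls. The 4 probes read 1 RefSeq transcript and are not independent measurements. None was called. Without Tie2-cre replicate 3 the differences were -0.09, -0.004, -0.10 and -0.17, each smaller by over 1.5 times. Without control replicate 1 the brightest and another probe each differed by -0.10. All 4 kept their sign in 19 of 19 alternatives.

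Nr3c1 had 1 probe, detected in 0 of 3 Tie2-cre lungs and 1 of 3 controls, with 4.91, 5.33 and 5.11 in Tie2-cre lungs, against 5.17, 5.47 and 5.03 in controls. It gave no level for the receptor and no fold change.

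Dusp1, a phosphatase that switches off MAP kinases, had 11.76, 11.83 and 11.35 in Tie2-cre lungs, against 11.84, 11.66 and 11.73 in controls. Tie2-cre replicate 3 was below the other lungs, and the groups overlapped, with a difference of -0.09 (SE 0.14). Errfi1, an inhibitor of the epidermal growth factor receptor, had 12.75, 12.92 and 12.80 in Tie2-cre lungs, against 12.96, 12.72 and 12.76 in controls, a difference of 0.01 (SE 0.11). The sign turned in some alternatives for both genes, for Dusp1 under median scaling (0.01) and without Tie2-cre replicate 3 (0.05), and for Errfi1 under 5 of them, cyclic loess (-0.03) included.

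**Figure D3:**
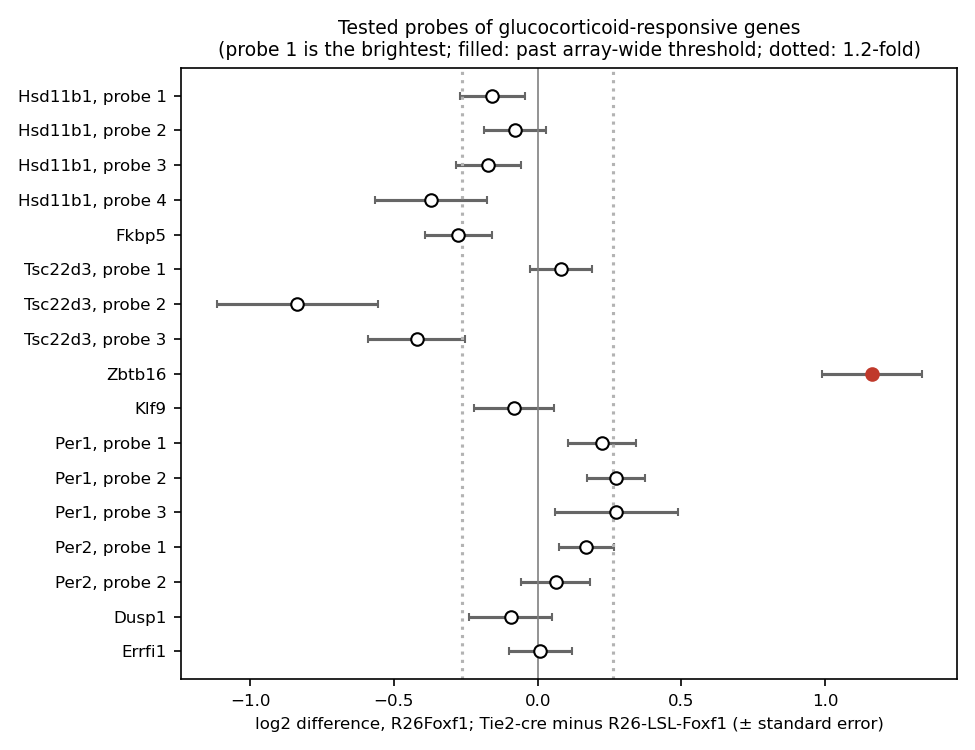
Difference in log2 signal, Tie2-cre minus control (horizontal axis), of the 17 tested probes of the 9 genes, with bars of ± 1 SE, dotted lines at 1.2-fold and the probe past the array-wide threshold filled. Zbtb16 stands at 1.16 and the second Tsc22d3 probe at -0.84. The other 15 lie between -0.42 and 0.27.

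Within each group the lungs kept a common order for several of the genes. Tie2-cre replicate 3 was the lowest Tie2-cre lung in 6 of the 9 genes (Hsd11b1, Tsc22d3, Klf9, Per1, Per2 and Dusp1), against 32.6% of all genes tested. Control replicate 1 was the highest control in 6 of the 9 and the lowest in 0, against 28.3% highest among all genes. Control replicate 3 was the highest control in 0 of the 9 and the lowest in 5, against 33.8% highest and 36.3% lowest among all genes. Tie2-cre replicate 3 was also the lowest Tie2-cre lung in 18 of 27 further glucocorticoid-induced genes (66.7%) and in 16 of 21 immediate early genes (76.2%). The place of control replicate 3 did not carry over, as it was the highest control in 10 and the lowest in 8 of the 27 induced genes, while control replicate 2 was the lowest in 15. Tie2-cre replicate 3 was the one lung with Eif2s3y and without Xist, and its summed myeloid marker signal was the lowest of all 6 lungs (6265, against 9624 to 23230 in the others). Its summed lung epithelial marker signal was also the lowest (68983, against 79904 to 93754 in the others). The part of these in the order of the lungs was not tested.

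**Figure D4:**
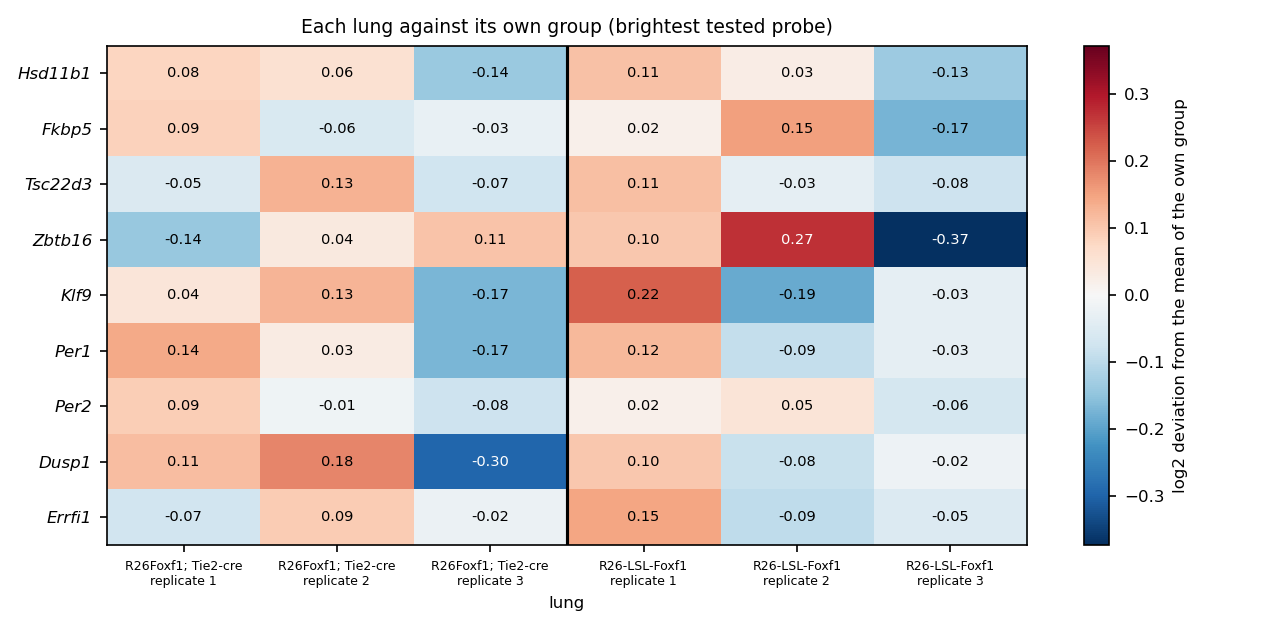
Deviation of each lung from the mean of its own group (log2 signal, colour and number) for the brightest tested probe of the 9 genes, Tie2-cre lungs left of controls. Tie2-cre replicate 3 is the lowest of its group in 6 rows, and control replicate 1 the highest of its group in 6.

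A list of 30 further glucocorticoid-induced genes was read the same way. All 30 had a probe, 27 were tested, and by the brightest probe 0 rose and 0 fell (limma). Over all genes tested 1.54% rose and 1.44% fell. At an unadjusted p under 0.05 there were 5 of 27, against 20.4% of all genes. The median difference was -0.04, with 11 means higher and 16 lower in Tie2-cre lungs. Lcn2, an iron-binding protein of innate defence, had 11.07, 11.25 and 9.72 in Tie2-cre lungs, against 11.36, 11.54 and 11.82 in controls, a difference of -0.89 (SE 0.37, adjusted p = 0.180, limma). Tie2-cre replicate 3 was far below the other lungs. Mt1, a metallothionein that binds zinc, had 14.16, 13.92 and 14.19 in Tie2-cre lungs, against 13.35, 13.58 and 13.78 in controls, and the groups did not overlap. The difference was 0.52 (SE 0.14, adjusted p = 0.0734, limma). Neither gene passed the threshold.

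Of 12 glucocorticoid-repressed genes 11 had a probe and 7 were tested, with 0 that rose and 1 that fell, and a median difference of -0.27. Over all genes tested 1.54% rose and 1.44% fell, with a median of 0.05. At an unadjusted p under 0.05 there were 3 of 7, against 20.4% of all genes. The groups did not overlap in 3 of 7, against 29.4% of all genes. Il1b, which encodes a proinflammatory cytokine, was not detected in any Tie2-cre lung (4.84, 5.15 and 4.81) and was detected in all 3 controls (6.13, 5.80 and 5.63). It was at least 1.39-fold lower in Tie2-cre lungs (adjusted p = 0.0384, limma). The call was lost without Tie2-cre replicate 1 (-0.87), Tie2-cre replicate 3 (-0.85), control replicate 1 (-0.78) or control replicate 3 (-1.03), and in the deposited values (-0.17). Il1b is made mainly by myeloid cells. All 7 myeloid markers tested had a lower mean in Tie2-cre lungs, with a median of -0.84, 0 past the threshold and 4 of 7 at an unadjusted p under 0.05, against 20.4% of all genes. Their summed signal was 6265 to 15223 in Tie2-cre lungs, against 17164 to 23230 in controls. Their part in the Il1b difference was not tested.

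Of 26 receptor chaperones and co-regulators 23 had a probe and 19 were tested. By the brightest probe 1 rose and 0 fell, against 1.54% and 1.44% of all genes tested, and the median difference was 0.09. At an unadjusted p under 0.05 there were 3 of 19, against 20.4% of all genes. Of the 29 probes tested for this list, 3 rose and 2 fell, against 2.43% and 2.09% of all probes. Hspa4, a co-chaperone of Hsp70 proteins, had 6.48, 6.20 and 6.26 in Tie2-cre lungs, against 5.53, 5.66 and 5.80 in controls, a difference of 0.65 (SE 0.12, adjusted p = 0.0410, limma). The call was lost when any lung other than control replicate 2 was left out, with differences of 0.57 to 0.72, and in the deposited values (0.16). Dimmer probes of Ep300 (0.85) and Ncoa2 (0.75), both coactivators, rose and those of Hspa8 (-0.89) and Kat2b (-0.73) fell, each at an adjusted p under 0.05 by limma. The brightest probes of the same genes did not pass, with differences of 0.05 for Ep300, 0.41 for Ncoa2, 0.05 for Hspa8 and -0.62 for Kat2b.

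Of 15 further genes of steroid synthesis, transport and inactivation, 14 had a probe and 4 were tested, with 0 past the threshold by the brightest probe and 1 of 4 at an unadjusted p under 0.05, against 20.4% of all genes. Tspo, a mitochondrial protein linked to cholesterol transport, differed by -0.27 (SE 0.11, adjusted p = 0.164, limma) by its brightest probe, and 1 of its 3 probes fell (-0.62, adjusted p = 0.0467, limma). Abcb1b, a drug and steroid exporter, differed by 0.07 (SE 0.21, adjusted p = 0.863). The mineralocorticoid receptor gene Nr3c2 and the adrenal genes Star, Cyp11b1 and Mc2r were not detected in any lung. Cyp11a1, another gene of steroid synthesis, was detected in 1 control and in 0 Tie2-cre lungs and was not tested. Its highest signal was 6.09, in control replicate 2.

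Of 20 further circadian clock genes 17 had a probe and 14 were tested. By the brightest probe 0 passed the threshold and 3 of 14 had an unadjusted p under 0.05, against 20.4% of all genes, and the median difference was 0.03. Rora, a nuclear receptor that activates Arntl, had 7.87, 8.03 and 7.76 in Tie2-cre lungs, against 8.42, 8.22 and 8.36 in controls, a difference of -0.45 (SE 0.11, adjusted p = 0.0641, limma). Csnk1e, a kinase that marks period proteins for breakdown, had 11.42, 11.46 and 11.49 in Tie2-cre lungs, against 11.18, 11.09 and 11.18 in controls, a difference of 0.30 (SE 0.09, adjusted p = 0.0921, limma). Groups did not overlap for either gene by these probes. A second Csnk1e probe of similar brightness differed the other way, by -0.10 (SE 0.11, adjusted p = 0.623, limma). Per3, another period gene, had a dimmer probe that rose (0.82, adjusted p = 0.0378, limma) and a brighter one with a difference of -0.12.

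Of 27 immediate early genes, all with a probe, 21 were tested, 0 passed the threshold and 3 of 21 had an unadjusted p under 0.05, against 20.4% of all genes. Their median difference was -0.10. Egr3 had 8.09, 7.28 and 7.94 in Tie2-cre lungs, against 6.90, 7.26 and 6.92 in controls, a difference of 0.75 (SE 0.22, adjusted p = 0.0898, limma). Fos had 8.43, 8.68 and 7.49 in Tie2-cre lungs, against 8.98, 8.81 and 8.83 in controls, a difference of -0.67 (SE 0.28, adjusted p = 0.178, limma). As for Lcn2 and Dusp1, Tie2-cre replicate 3 was the lowest lung.

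**Figure D5:**
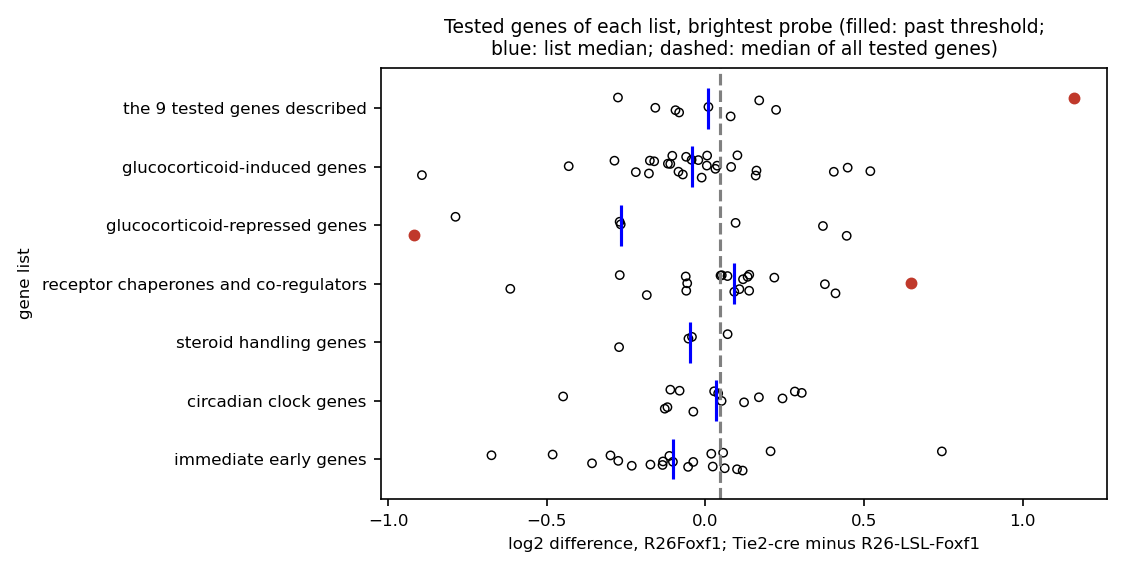
Difference in log2 signal, Tie2-cre minus control (horizontal axis), of every tested gene by its brightest probe in the glucocorticoid genes and 6 related lists. Each point is a gene, blue bars are list medians, the dashed line is the median of all tested genes, and filled points passed the array-wide threshold: Zbtb16, Il1b and Hspa4.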

How the data were processed

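RNA of 6 whole lungs at E18.5, 3 per genotype, was measured on Illumina arrays with 45281 probes. For each, the authors deposited a signal intensity from which background had been subtracted, with 25.5% to 28.5% of values per lung below 0, beside a detection p-value. The mean of these intensities was 508.11 in every lung, so they were already on a common scale. The authors also deposited log2-like values after spline normalization and variance stabilization, and these matched their arrays (r of at least 0.874 over 2217 bright probes).

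The intensities were processed in R 4.3.3 with limma 3.58.1. With neqc, negative controls were inferred from the detection p-values, an offset of 16 was used, and log2 values were quantile normalized. A probe was tested if its detection p was under 0.01 on 3 or more arrays, which left 20118, and these were compared with lmFit and eBayes, with Benjamini-Hochberg adjustment over all of them. A call needed an adjusted p under 0.05 and a change of at least 1.2-fold. A gene was represented by its brightest tested probe. Where a probe was not detected in any lung of a group, the fold is a lower bound, computed against the lowest detected signal of each array. The fit was tested on simulated data, where it missed all of the added changes of 1.2-fold. It also missed part of the added changes at every larger size tried, and fewer of them as the size grew. A change that was not called is therefore not shown to be absent, even where it is larger than 1.2-fold.

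Symbols came from the array's annotation, updated by gene ID (34807 matched; 34885 probes had 1 symbol, 18 several and 10378 none). Named genes were all probes of the 10 genes, in each of 6 related lists and 10 marker lists up to 3 genes per direction that passed or otherwise the 2 with the largest difference, and the 5 genes most correlated with the member of the largest difference. Dimmer probes that passed, single muscle, thymocyte and untested steroid genes, and sex-linked genes were named after their values were seen. The members and lists were chosen with earlier results of these data known. The alternatives were other background correction, scaling, filters, moderation and thresholds, the deposited values, the methods' t-test, a replicate block, averaging the probes of a gene, and each lung left out. Lungs are labelled as biological replicates, and their number limits the precision.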

Additional observations from a re-analysis of the deposited data

How the results depend on the processing

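With 1 lung left out, 2 to 1703 probes were called array-wide (908 with all lungs), 0 to 2 probes of the 10 genes (1 with all lungs) and 0 of the 27 further glucocorticoid-induced genes (0 with all lungs). Array-wide calls numbered 516 without background correction, 58 with no filter on dim probes, 250 when a detection p under 0.05 on any 1 array sufficed, 1860 with a variance trend and robust moderation, 2490 with array weights, 0 by the methods' t-test on the neqc and on the deposited values, 5009 at an unadjusted p under 0.05 and 2679 at an adjusted p under 0.1. Of the probes of the 10 genes, 0 were called with no filter and by either t-test, 2 with array weights and 5 at an unadjusted p. Of the glucocorticoid-induced genes, 2 were called in the deposited values, 1 under median scaling, 1 with detection on all 6 arrays, 3 with a variance trend and robust moderation, 3 with array weights, 5 at an unadjusted p and 3 at an adjusted p under 0.1. The cause of these shifts was not tested.

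Deviations of same-numbered lungs correlated at 0.29, -0.04 and -0.03, against -0.20 to 0.17 for lungs of unlike number. The highest value was that of the lungs numbered 1. So few correlations cannot decide whether the replicate numbers pair the lungs. With a replicate block 46 probes were called array-wide, 0 of the 10 genes and 0 of the glucocorticoid-induced genes. Control replicate 3 as the sole control was chosen after seeing the data, because thymocyte genes were high in the other controls. It also had the lowest Zbtb16 signal, so the larger Zbtb16 difference against it followed from that choice. The spread was taken from the Tie2-cre lungs.

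Median scaling moved the median difference of all tested probes to 0.10, against 0.03. The share of higher calls was 53.7%, and it was 61.7% under median scaling, 39.3% under cyclic loess and 28.3% with a replicate block. With 1 lung left out it was 19.6% to 40.8%, and 50% (of 2 calls) without Tie2-cre replicate 3. Of the 9 genes, 7 had a higher mean under median scaling and 4 under cyclic loess. The Zbtb16 difference was 0.58 in the deposited values and between 0.98 and 1.54 elsewhere, and its call was lost in 9 of 19 alternatives. That of Hspa4 was lost in 12 of 19.

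The lungs number 3 a group, and the Nr3c1 probe, near background, gave no difference.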

Other observations

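By Pearson correlation over the 6 lungs, the named genes most like Zbtb16 were Tns3 (0.998), Commd2 (0.998), A930011G23Rik (0.997), Hexdc (0.996) and Vezt (0.996). Each was higher in Tie2-cre lungs, by 0.34 (Hexdc) to 1.01 (A930011G23Rik) on the log2 scale. These were picked as the highest of many correlations over only 6 lungs in 2 groups. Of the 17193 probes compared, 440 had a correlation over 0.95 with Zbtb16.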
